A study of Bubalus bubalis with 12 samples.

Results

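The genes described here carry propionate from its activation to succinyl-CoA, or bind, deliver or use the cobalamin (vitamin B12) that the last step of this route needs. They were taken by symbol from the deposited expression table, in which MMUT is written MUT, and all 10 were found among its 34037 genes. Propionyl-CoA carboxylase is formed by PCCA and PCCB, methylmalonyl-CoA is handled by the epimerase MCEE and the mutase MMUT, and MMAA and MMAB load cobalamin onto the mutase. ACSS3 is a mitochondrial acyl-CoA synthetase that acts on propionate, TCN1 and TCN2 are secreted cobalamin carriers, and LRP2 (megalin) is an endocytic receptor.

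Propionate is one of the short-chain fatty acids that rumen microbes release from feed and that the stratified epithelium of the ruminal wall absorbs. Inside mitochondria it is joined to coenzyme A, carboxylated by a biotin-dependent enzyme, epimerised, and rearranged to succinyl-CoA by a mutase that works only with adenosylcobalamin. Most absorbed propionate reaches the liver and is turned into glucose there, and rumen microbes are also the animal's source of cobalamin.

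Ruminal wall was taken at slaughter from 12 Italian Mediterranean dairy buffaloes (Bubalus bubalis), all adult cows. Of these, 6 were kept on a total mixed ration (TMR) as the control group. The other 6 formed the treated group, whose TMR contained 30% green feed, described in the study's methods as freshly cut ryegrass. Each animal gave 1 stranded library of total RNA, with no pooling. By the feed table of the study, the rations also differed in their share of forage, and a vitamin supplement, soybean meal and calcium carbonate were listed for the control ration only, so that effects of these components and of the green feed cannot be told apart.

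Between 10531541 and 12948372 reads per animal lay behind the values, with medians of 12414349 in control and 12031598 in treated animals. Expression is given in FPKM, fragments scaled to the length of the gene and to all counted fragments of the animal, so that levels can be compared between genes as well as between animals. Of the marker genes in the table, 10 of 11 of squamous epithelium and 6 of 6 of the ketogenic ruminal epithelium averaged above 1 FPKM. So did 7 of 7 fibroblast and 4 of 4 endothelium genes, so this count alone does not tell tissues apart. Squamous epithelium genes were summed to between 4255 and 7332 FPKM in control animals and between 4465 and 7958 FPKM in treated animals, far above smooth muscle. Smooth muscle genes were summed to between 14.5 and 33.6 FPKM in control animals and between 5.07 and 26.1 FPKM in treated animals (exact permutation test, two-sided, p = 0.0649), and 5 of 8 averaged above 1 FPKM with none at 0. Treated replicates 1 and 2 had the lowest score of the smooth muscle and fibroblast genes. The library of treated replicate 6 stood apart, with a median chi-square per gene of 89.7 to the remaining libraries, where the medians of those ranged from 26.9 to 62.7.

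In the tests used here, none of the genes of the propionate and cobalamin route differed between the diets beyond the spread between animals. The study, with other tests, listed LRP2 as lower in treated animals with edgeR at an unadjusted p-value below 0.05. With NOISeq only, it listed ACSS3 as lower and TCN1 as higher. With limma on log2(FPKM + 0.01) and Benjamini-Hochberg adjustment over the 12742 genes tested, 0 of 10 had an adjusted p-value below 0.05, where the share among all genes tested was 0%. At an unadjusted p-value below 0.05 the count was also 0 of 10, against 162 genes or 1.27% of all tested, of which 102 (0.801%) were higher and 60 (0.471%) were lower in treated animals. Read counts could be recovered from the FPKM, and limma's voom on these counts also gave 0 of 10 in both respects. In no member were the groups free of overlap, which was the case for 0.0549% of the genes tested. The median log2 fold change (treated minus control) was -0.011 over the 10 members and 0.0050 over all genes tested, and 5 of 10 were positive. Without treated replicate 6 the counts were 0 of 10 adjusted and 1 of 10 (ACSS3) unadjusted, while 331 of the 12742 genes had an unadjusted p-value below 0.05. All 10 passed the filter of 40 depth-scaled reads in at least 1 animal, LRP2 only through control animals. Since pieces of ruminal wall with several cell types were sequenced, fewer cells of a type and less RNA per cell cannot be told apart in any of these values.

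**Figure D1:**
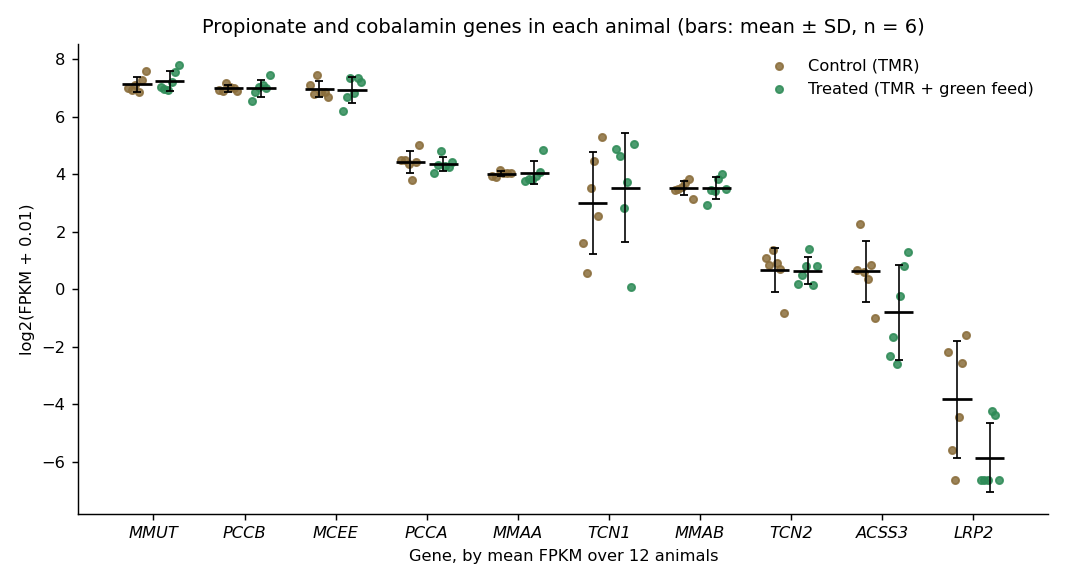
Level of each gene in each animal, as log2(FPKM + 0.01), ordered from left to right by the mean FPKM over 12 animals; points are animals, horizontal bars are group means and error bars are SD (n = 6). The enzymes of the route sit in tight groups at the left, whereas the points of TCN1, ACSS3 and LRP2 spread over several log2 units and those of both diets overlap for every gene.

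As the plot of levels by animal shows, the mean levels of the genes lay far apart, although few ranges over 12 animals were free of overlap with the next. MMUT had the highest mean at 148 FPKM, followed by PCCB at 128 FPKM and MCEE at 127 FPKM, and these placed them above 96.8%, 96.4% and 96.4% of the genes tested. The order among these was not fixed, since MMUT exceeded PCCB in 9 of 12 animals and PCCB exceeded MCEE in 8 of 12. PCCA, with a mean of 21.4 FPKM, lay below MCEE in 12 of 12 animals, and was followed by MMAA at 16.6, TCN1 at 15.9 and MMAB at 11.7 FPKM. These neighbours overlapped, with MMAA above TCN1 in 7 of 12 animals and TCN1 above MMAB in only 5 of 12. TCN2, at 1.68 FPKM, was below MMAB in 12 of 12 animals but below TCN1 in only 10 of 12, and above ACSS3, at 1.42 FPKM, in 8 of 12. LRP2 was the lowest with a mean of 0.0681 FPKM.

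Activation of propionate was the first step examined. ACSS3 (gene identifier 102393364), which forms propionyl-CoA in mitochondria, was measured at 1.57, 4.79, 1.51, 1.27, 1.76 and 0.484 FPKM in control replicates 1 to 6. In the treated replicates, in the same order, it was measured at 0.188, 0.305, 0.153, 0.828, 1.74 and 2.43 FPKM. In words, treated replicates 1, 2 and 3 lay below every control animal, while treated replicates 5 and 6 lay above most of them, and the groups overlapped. The means were 1.90 ± 1.49 FPKM in control and 0.941 ± 0.946 FPKM in treated animals (SD, n = 6), from between 9 and 280 reads per animal. This gave a log2 fold change of -1.41 (standard error 0.70, 95% interval -2.92 to 0.09), equal to a treated level of 0.132 to 1.07 times that of the control. The difference missed the threshold in limma (unadjusted p = 0.0638, Benjamini-Hochberg adjusted p = 0.9996) and in the exact permutation test (two-sided, p = 0.104).

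The value of ACSS3 depended on single animals. Its log2 fold change was -1.08 without control replicate 2, the animal with 27.4% of all ACSS3 reads (limma, unadjusted p = 0.147). Without treated replicate 1, 2 or 3 it was -1.11, -1.24 and -1.05 (limma, unadjusted p = 0.142, 0.121 and 0.148). Unadjusted limma p-values below 0.05 were obtained without control replicate 6 (p = 0.0284), without treated replicate 5 (p = 0.0289) and without treated replicate 6 (p = 0.0151), and without treated replicate 6 the exact permutation test gave p = 0.0433. Without treated replicates 1 and 2, the animals lowest in smooth muscle and fibroblast genes, the log2 fold change was -0.81. With the score of these genes as a covariate it was -1.01, and neither value passed the threshold in limma.

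**Figure D2:**
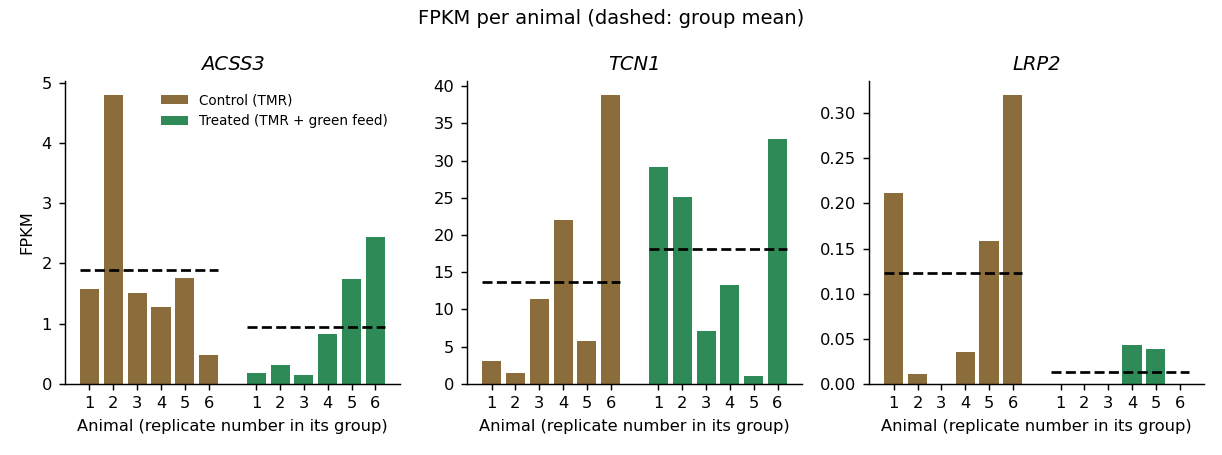
FPKM of ACSS3, TCN1 and LRP2 in each animal, with bars for the control (left) and treated (right) replicates 1 to 6 and dashed lines for the group means. Single animals set much of each group mean, such as control replicate 2 for ACSS3 at 4.79 FPKM, and LRP2 is at 0 in 4 treated animals and 1 control animal.

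The carboxylase and the epimerase were measured in every animal. Their coefficients of variation over 12 animals were 22.2% for PCCA, 14.8% for PCCB and 24.0% for MCEE. PCCA (102405109), the alpha subunit that carries biotin, ranged from 13.9 to 32.0 FPKM with a median of 21.9 in control animals, and from 16.3 to 27.7 FPKM with a median of 19.8 in treated animals. PCCB (102400075), the beta subunit, ranged from 118 to 145 FPKM with a median of 125 in control animals, and from 93.6 to 173 FPKM with a median of 129 in treated animals. MCEE (102409105), which turns one methylmalonyl-CoA stereoisomer into the other, ranged from 104 to 176 FPKM with a median of 117 in control animals, and from 72.7 to 162 FPKM with a median of 131 in treated animals. For all of them the ranges of the groups overlapped, and treated animals stood on both sides of the control animals for PCCB.

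The intervals around these differences were narrow. PCCA had a log2 fold change of -0.08 (standard error 0.18, 95% interval -0.46 to 0.30), and means of 22.1 ± 5.79 and 20.6 ± 3.83 FPKM in control and treated animals (SD, n = 6). For PCCB it was 0.01 (standard error 0.13, interval -0.27 to 0.29), with means of 127 ± 10.3 and 129 ± 26.2 FPKM. For MCEE it was -0.03 (standard error 0.20, interval -0.46 to 0.40), with means of 127 ± 26.8 and 127 ± 36.4 FPKM. Exact permutation tests (two-sided) gave p = 0.680, 0.952 and 0.887 for PCCA, PCCB and MCEE. With the smooth muscle and fibroblast score as a covariate the log2 fold changes turned to 0.055 for PCCA and 0.24 for MCEE, again not past the threshold.

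Although both subunits enter the same enzyme, their transcripts were measured at unequal levels. The FPKM of PCCB was 6.12 ± 1.90 times that of PCCA in control animals, with a range of 3.72 to 9.28, and 6.34 ± 1.20 times in treated animals, with a range of 4.68 to 8.14 (SD, n = 6). The ratio was above 1 in 12 of 12 animals and did not differ detectably between the diets (exact permutation test of the log2 ratio, two-sided, p = 0.701). A ratio of FPKM rests on the gene lengths used for counting, which came out as 3186 bases for PCCA and 1845 bases for PCCB.

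MMUT (102405858), the cobalamin-dependent mutase, was the most abundant of the genes. It ranged from 116 to 191 FPKM with a median of 132 in control animals, and from 120 to 220 FPKM with a median of 139 in treated animals. The highest value was that of treated replicate 6 and the next that of control replicate 6, so the upper ends of both groups lay close together. The means were 141 ± 27.9 and 155 ± 40.7 FPKM (SD, n = 6), for a log2 fold change of 0.12 (standard error 0.17, interval -0.25 to 0.48). The exact permutation test gave p = 0.537 (two-sided).

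The partners that prepare the mutase were lower than the mutase itself. MMAA (102413603), a GTPase that guards the loading and exchange of the cofactor, was measured at 15.3, 14.9, 17.5, 16.3, 16.6 and 16.4 FPKM in control replicates 1 to 6. The treated replicates gave 13.6, 14.2, 14.0, 15.2, 17.0 and 28.3 FPKM in the same order. Control animals were thus tightly grouped, 3 treated animals lay below all of them, and treated replicate 6 stood far above both groups. The coefficient of variation was 5.76% in control and 33.1% in treated animals, and the means were 16.2 ± 0.930 and 17.1 ± 5.65 FPKM (SD, n = 6). The log2 fold change of 0.03 (standard error 0.16, interval -0.32 to 0.38) turned to -0.13 without treated replicate 6, where the exact permutation test gave p = 0.0758 in place of p = 0.970 (two-sided).

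MMAB (102401874), the transferase that makes adenosylcobalamin, ranged from 8.68 to 14.1 FPKM with a median of 11.4 in control animals, and from 7.56 to 16.2 FPKM with a median of 11.1 in treated animals. Treated animals lay at both ends of the range. The difference was a log2 fold change of 0.01 (standard error 0.18, interval -0.37 to 0.39; exact permutation test, two-sided, p = 0.965). MMUT exceeded MMAA by 8.75 ± 1.61 times in control and 9.23 ± 1.15 times in treated animals, and MMAB by 12.7 ± 4.64 and 13.6 ± 3.85 times (SD, n = 6). Neither ratio differed detectably between the diets (exact permutation tests, two-sided, p = 0.491 and 0.716).

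**Figure D3:**
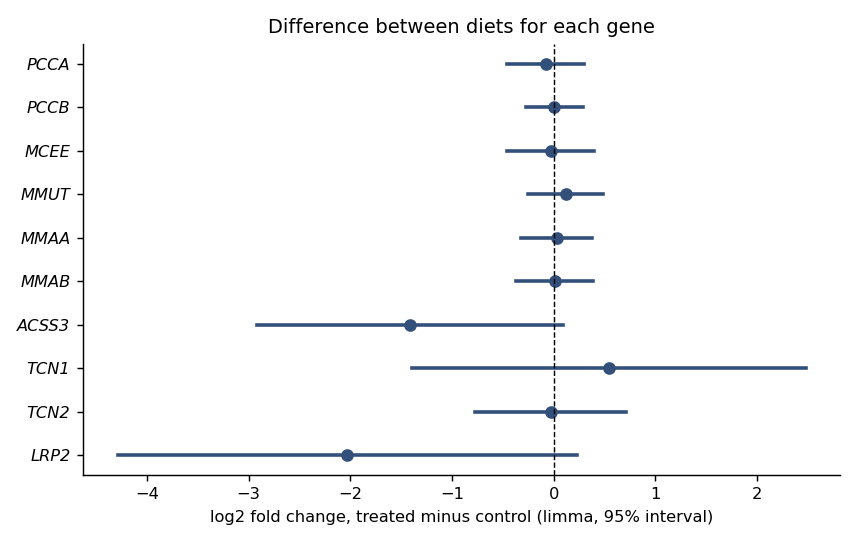
Difference between the diets for each gene, as the log2 fold change in limma (treated minus control, x axis) with its 95% interval. The intervals of the 6 enzymes and their partners lie between -0.46 and 0.48, whereas those of ACSS3, TCN1 and LRP2 are several times wider, and every interval includes 0.

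For the 6 genes from the carboxylase to the loading of the mutase, the plot of intervals shows what size of change these animals leave possible. Their log2 fold changes lay between -0.08 and 0.12, and their 95% intervals reached from 0.727 to 1.40 times the control level. Their standard deviation within groups was larger than that of between 19.0% and 53.1% of the genes tested, so they were not unusual in their spread. For TCN1, LRP2 and ACSS3 the same share was 98.9%, 98.6% and 97.7%, and changes of several fold in either direction lay within the interval of TCN1.

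Among the cobalamin carriers, TCN2 (102409343), which brings cobalamin to cells, was low. It ranged from 0.552 to 2.54 FPKM with a median of 1.81 in control animals, and from 1.09 to 2.65 FPKM with a median of 1.57 in treated animals. Control replicate 6 was the lowest of all animals, and the remaining values of both groups overlapped. The means were 1.74 ± 0.667 and 1.63 ± 0.576 FPKM (SD, n = 6), a log2 fold change of -0.03 (standard error 0.35, interval -0.77 to 0.72; exact permutation test, two-sided, p = 0.952).

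TCN1 (102416165), also called haptocorrin, a cobalamin binder known from saliva and from neutrophil granules, had the widest range among the members above 0 in every animal. Control replicates 1 to 6 gave 3.01, 1.48, 11.3, 22.0, 5.75 and 38.8 FPKM. Treated replicates 1 to 6 gave 29.1, 25.0, 7.12, 13.3, 1.05 and 32.9 FPKM. The highest value was from a control animal and the lowest from a treated animal, 37.0 times apart, and the remaining animals of both groups were spread between them. The means were 13.7 ± 14.3 and 18.1 ± 12.8 FPKM (SD, n = 6), a log2 fold change of 0.54 (standard error 0.90, interval -1.40 to 2.48; exact permutation test, two-sided, p = 0.613). Without treated replicate 5 the log2 fold change was 1.23, without control replicate 2 it was 0.06 and without treated replicates 1 and 2 it was -0.07, none past the threshold in limma.

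Markers of the cells in which TCN1 is best known were uneven in these libraries. Of the 7 leukocyte and neutrophil genes 3 averaged above 1 FPKM, PTPRC at 10.02, CD3E at 5.65 and the neutrophil receptor CXCR2 at 2.67 FPKM, and CSF3R averaged 0.569 FPKM. Among the products of neutrophil granules, MPO was at 0 in 12 of 12 animals and LTF was at most 0.0759 FPKM. The summed level of all 7 genes was 12.8 to 24.3 FPKM in control and 8.89 to 23.1 FPKM in treated animals. Spearman's rho of TCN1 with the mean log2 FPKM of PTPRC, CD3E and CXCR2 alone was 0.06 (r = 0.05, permutation p = 0.870 and 0.882). The neutrophil genes CSF3R, LTF and MPO, under 1 FPKM, had no part in that mean. Of the 5 mucous gland genes the water channel AQP5 averaged 642 FPKM, BPIFB1 was at 0 in every animal, and MUC5B, MUC5AC and PIGR were at most 0.0119, 0.0320 and 0.0681 FPKM. The part of these cells in the level of TCN1 was not tested. The genes whose levels followed TCN1 most closely over 12 animals, out of 17177 searched, were TNFRSF9 (rho = 0.97), FAM83B (rho = 0.95) and ENTPD7 (rho = 0.93), given without a test because they were picked as the highest. FAM83B ranged only from 41.7 to 60.7 FPKM and ENTPD7 from 7.75 to 14.8 FPKM over the same animals. TCN1 exceeded TCN2 in 10 of 12 animals, with a ratio between 0.841 and 70.3 in control and between 0.961 and 25.7 in treated animals (exact permutation test of the log2 ratio, two-sided, p = 0.617).

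LRP2 (102416017), which in the kidney takes up carrier-bound cobalamin among many other ligands, was barely detected. The reads behind it numbered 41, 2, 0, 7, 30 and 52 in control replicates 1 to 6, and 0, 0, 0, 8, 7 and 0 in treated replicates 1 to 6. In all, 132 reads came from control and 15 from treated animals, 5 animals had none and 6 had 3 or fewer, which is taken here as the floor. Every treated animal lay below the control median, but control replicates 2, 3 and 4 lay in the range of the treated animals, and control replicate 6 alone held 35.4% of the reads.

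In FPKM, the control animals had 0.211, 0.0109, 0, 0.0357, 0.158 and 0.320, and treated replicates 4 and 5 had 0.0429 and 0.0382, with the remaining treated animals at 0. One read was worth 0.00537 FPKM, since the gene was counted over 15441 bases. The means were 0.123 ± 0.129 and 0.0135 ± 0.0210 FPKM (SD, n = 6). The fitted log2 fold change of -2.03 had a standard error of 1.05 and an interval of -4.29 to 0.23 (limma, unadjusted p = 0.0748, Benjamini-Hochberg adjusted p = 0.9996), and the exact permutation test gave p = 0.0779 (two-sided). Because so many values are 0, this fold depends on the pseudocount, and it was -0.78 with a pseudocount of 0.1 and -0.14 with a pseudocount of 1. Without control replicate 2 or control replicate 3, both near the floor, the unadjusted limma p-value was below 0.05. The exact permutation p was then 0.0779 and 0.0216, and without control replicate 6 it was 0.123. Leaving out a low control animal raises the control mean, and LRP2 passed the read filter only through control animals. These p-values therefore show only the dependence on single animals.

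The log2 fold change of LRP2 was -1.31 with the smooth muscle and fibroblast score as a covariate and -1.64 without treated replicates 1 and 2, neither past the threshold in limma. Markers of the kidney tubule, SLC34A1 and UMOD, were at 0 in every animal, while SLC5A2 reached at most 0.0353 FPKM and the thyroid gene TG at most 0.233 FPKM. CUBN and AMN, the receptor partners with which LRP2 works in the gut and kidney, were under the read filter, with at most 9 and 3 reads in an animal. The genes most like LRP2 over 12 animals were LOC112585051 (rho = 0.93), ADAM28 (rho = 0.92) and LOC102403863 (rho = 0.90), and those most like ACSS3 were LOC102406915 (rho = 0.88), GFRA2 (rho = 0.84) and LOC102391934 (rho = 0.84), again given without a test.

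The animals that were high or low for one gene were partly the same for others. Of the 9 genes above 0 in every animal, treated replicate 6 was the highest in 3, PCCB, MMUT and MMAA. Treated replicate 1 was the lowest in 4, PCCB, MCEE, MMAA and MMAB.

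Of 45 pairs of members, 0 had a Benjamini-Hochberg adjusted permutation p-value below 0.05 for Pearson's r or for Spearman's rho over the 12 animals. PCCB and MMAA had the highest r, 0.81 (permutation p = 0.00128, adjusted p = 0.0576), with a rho of 0.60 (p = 0.0430, adjusted p = 0.357), and r was 0.51 without the 2 animals farthest from the median of PCCB. PCCB and MCEE had the highest rho, 0.73 (permutation p = 0.00868, adjusted p = 0.357), with an r of 0.74 (p = 0.00768, adjusted p = 0.115), which was 0.63 without the 2 farthest animals, 0.80 within control and 0.75 within treated animals. For MMUT and MMAA, r was 0.74 (permutation p = 0.00362, adjusted p = 0.0814) and rho 0.66 (p = 0.0235, adjusted p = 0.357), with an r of 0.53 without the 2 farthest animals. Within the diets that relation was uneven, with an r of 0.35 in control and 0.90 in treated animals, among them treated replicate 6. Without that animal (n = 11) r was 0.67 for PCCB and MMAA, 0.55 for MMUT and MMAA and 0.81 for PCCB and MCEE, with adjusted permutation p-values of 0.219, 0.311 and 0.123.

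No relation between PCCA and its partner subunit PCCB was detected over the 12 animals, with a rho of -0.01 and an r of 0.11. The r differed in sign within the diets, -0.45 in control and 0.49 in treated animals. It was 0.38 without the 2 animals farthest from the median of PCCA. Expressed as deviations from the group means, 2 pairs passed by r, MMUT with MMAA (r = 0.75) and PCCB with MMAA (r = 0.81), both with an adjusted permutation p of 0.0391, and 0 pairs passed by rho. Without treated replicate 6, 0 pairs passed in either form.

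**Figure D4:**
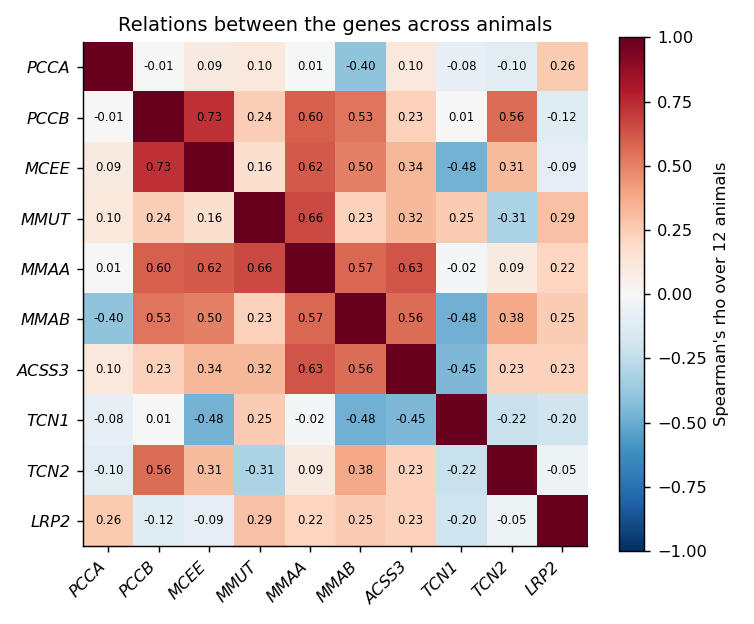
Spearman's rho between each pair of the genes over the 12 animals, on a colour scale from -1 to 1 with the value printed in each cell. PCCB, MCEE, MMAA and MMAB have values of 0.50 to 0.73 with each other, the highest for PCCB and MCEE. Other cells are as warm, such as 0.66 for MMUT and MMAA and 0.63 for MMAA and ACSS3. PCCA and TCN1 have values near 0 or below with most of the other genes, and no pair passed the adjusted threshold.

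Genes that feed into the route, supply its cofactors or use its product were examined as lists. Of 61 genes in 7 lists, 58 were in the table and 49 were tested, and 1 had an unadjusted limma p-value below 0.05, against 1.27% of all genes tested. None had an adjusted p-value below 0.05, and the median log2 fold change of the 49 was -0.01.

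Of the 15 enzymes that make propionyl-CoA from branched-chain amino acids and other sources, 15 were tested and 0 were called (an unadjusted limma p-value below 0.05) in either direction. ACADSB, an acyl-CoA dehydrogenase of isoleucine breakdown, had 21.5 ± 4.60 FPKM in control and 16.3 ± 5.15 FPKM in treated animals (SD, n = 6; log2 fold change -0.44, exact permutation p = 0.0931). ALDH6A1, which forms propionyl-CoA from valine, had 32.0 ± 7.47 and 27.1 ± 4.19 FPKM (log2 fold change -0.23). ACADSB was called without control replicate 3 (-0.54), treated replicate 4 (-0.53) or treated replicate 5 (-0.55).

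Of the genes for entry and activation of propionate, 6 of 9 in the table were tested and 0 were called. The monocarboxylate transporter SLC16A1 had 677 ± 79.6 and 617 ± 124 FPKM (log2 fold change -0.15), and ACSS2, a cytosolic synthetase for acetate, had 17.3 ± 3.01 and 19.1 ± 2.98 FPKM (0.15). ACSS1, at 0.569 FPKM, and the medium-chain synthetases ACSM1 and ACSM3, at 0.0300 and 0.00603 FPKM, were under the filter. The mean of ACSS3 was above theirs, but its treated median of 0.566 FPKM was close to the 0.526 FPKM of ACSS1. The 3 genes of biotin supply were tested with 0 calls, among them the holocarboxylase synthetase HLCS (6.70 ± 1.35 and 7.65 ± 1.75 FPKM, log2 fold change 0.18) and the vitamin transporter SLC5A6 (13.0 ± 1.39 and 14.2 ± 2.33 FPKM, 0.12). With 1 animal left out the log2 fold change of HLCS lay between 0.083 (without treated replicate 1) and 0.30 (without treated replicate 6).

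Beyond the mutase, 7 of 9 genes of succinyl-CoA use and gluconeogenesis were tested and 0 were called. SUCLG1, a subunit of succinyl-CoA ligase, had 212 ± 30.5 FPKM in control and 250 ± 28.4 FPKM in treated animals (SD, n = 6; log2 fold change 0.24, exact permutation p = 0.0584), and OXCT1, which uses succinyl-CoA to activate ketone bodies, had 4.55 ± 0.903 and 3.60 ± 1.65 FPKM (-0.44). PCK1, the cytosolic enzyme of gluconeogenesis, was listed at 0 in 12 of 12 animals, and pyruvate carboxylase, PC, averaged 0.222 FPKM. Other genes of gluconeogenesis on this list were measured in every animal, with means of 30.8 FPKM for PCK2 and 45.5 FPKM for FBP1. SUCLG1 was called without control replicate 1 (0.29), control replicate 3 (0.28) or treated replicate 1 (0.30), with the smooth muscle and fibroblast covariate (0.37) and without treated replicates 1 and 2 (0.32), and OXCT1 without treated replicate 6 (-0.61).

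For cobalamin uptake, 5 of 7 genes in the table were tested with 0 calls. CD320, the cell surface receptor for TCN2-bound cobalamin, had 19.7 ± 6.08 and 20.6 ± 4.40 FPKM (log2 fold change 0.08), and ABCC1, an exporter that also carries cobalamin, had 2.21 ± 0.432 and 2.65 ± 0.648 FPKM (0.25). Among 7 relatives of LRP2 in the LDL receptor family that were tested, 0 were called, with LRP6 at 14.2 ± 1.94 and 12.1 ± 2.91 FPKM (-0.25) and VLDLR at 7.11 ± 3.0 and 9.90 ± 4.95 FPKM (0.43). The value of VLDLR was 0.24 without treated replicate 2, 0.17 with the smooth muscle and fibroblast covariate and 0.021 without treated replicates 1 and 2. LRP6 was called without treated replicate 5 (-0.34).

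The called gene, MMACHC (102401472), belongs to the intracellular steps, of which 6 of 7 were tested. Its product strips incoming cobalamin of its upper ligand in the cytosol before the vitamin is passed to the mitochondrial and cytosolic enzymes. It ranged from 4.41 to 7.17 FPKM with a median of 4.77 in control animals, and from 4.79 to 9.18 FPKM with a median of 6.96 in treated animals. Every treated animal lay above the control median and 3 lay above all control animals, but the ranges overlapped. The means were 5.20 ± 1.05 and 6.91 ± 1.52 FPKM (SD, n = 6), a log2 fold change of 0.40 (standard error 0.18, limma, unadjusted p = 0.0377, Benjamini-Hochberg adjusted p = 0.9996, exact permutation p = 0.0433, two-sided). With 1 animal left out in turn, the log2 fold change lay between 0.31 and 0.50 and the unadjusted p-value between 0.0101 and 0.0826, below 0.05 in 5 of 12 cases. The call was lost without control replicate 2, 4, 5 or 6 and without treated replicate 2, 5 or 6, where the log2 fold change lay between 0.31 and 0.38. With voom on the reads the unadjusted p-value was 0.0510. The call was kept with the smooth muscle and fibroblast covariate (log2 fold change 0.52, limma, unadjusted p = 0.0235). It was also kept without treated replicates 1 and 2 (0.49, limma, unadjusted p = 0.0219). ABCD4, which works in the release of cobalamin from lysosomes, had 2.62 ± 0.601 and 2.96 ± 0.646 FPKM (log2 fold change 0.18, which was 0.058 without control replicate 6 and 0.29 without treated replicate 6).

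**Figure D5:**
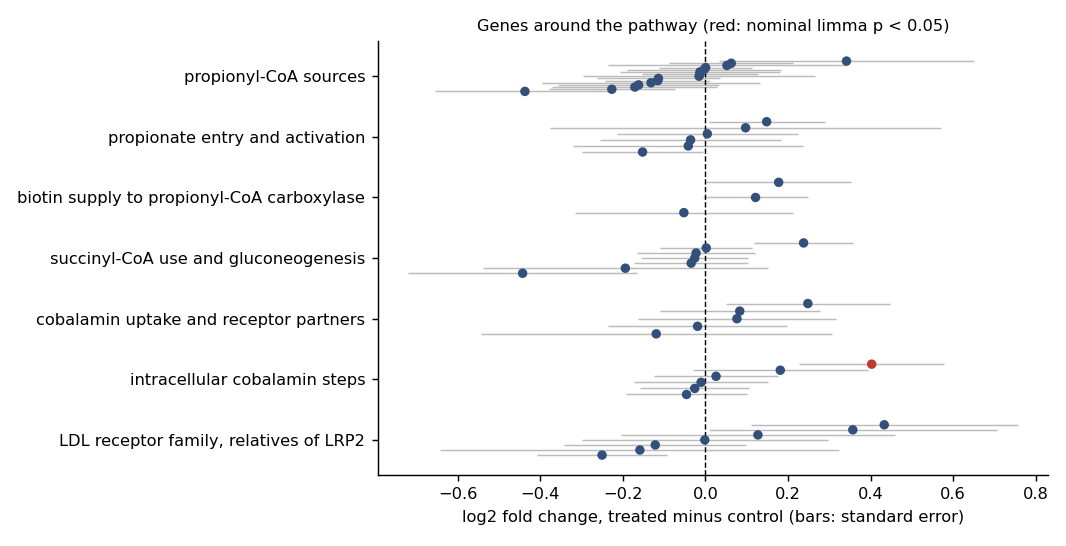
Log2 fold change in limma (treated minus control) of the 49 tested genes of the 7 lists around the route, with bars for the standard error and the gene with an unadjusted p-value below 0.05, MMACHC at 0.40, in red. Most points lie close to 0 in every list.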

How the data were processed

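Stranded total RNA libraries of ruminal wall, 1 per animal, were processed by the authors with FastQC 0.11.5, Trimmomatic 0.39, STAR 2.5.2b (genome UOA_WB_1) and featureCounts 2.0.0, and FPKM values were deposited by the authors. The FPKM tool and gene lengths are not given in the sources used here. Of 16 columns 12 were matched to animals by the labels, and 4 were not used. Reads and depth were worked out from the FPKM steps (whole within 0.01 for 22972 of 22972 genes above 0). All 66 pairs of libraries differed beyond counting noise. The test was limited to genes reaching 40 depth-scaled reads in 1 animal or more, and used limma 3.58.1 in R 4.3.3 (eBayes with trend, Benjamini-Hochberg) on log2(FPKM + 0.01), which understates changes of low genes, and members also with a two-sided exact permutation test over 924 assignments (smallest p 0.00216). Correlations used 100000 permutations, with Python 3.11.15 and scipy 1.17.1. The scripts were tested on simulated data. Members and lists were chosen with earlier results of these data known. Of each list the 2 genes with the smallest p-values and any called gene are named. Others were named after their values were seen, as under the filter, at 0, or measured beside such genes. The most alike genes were sought for TCN1, ACSS3 and LRP2, which the study had named as changed, among genes with a mean of at least 0.1 FPKM. Alternatives covered pseudocounts, filters, scaling, robust eBayes, voom, the replicate block, a stromal covariate, linear means, deviations from group means and each animal left out. Relations to marker lists, the fit without treated replicates 1 and 2 and the relations without treated replicate 6 were added after seeing the data.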

Additional observations from a re-analysis of the deposited data

Results flagged for a closer look

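MMAA in treated replicate 6 was at 28.3 FPKM, far from the remaining treated animals at 13.6 to 17.0 FPKM, with a gap of 0.768 of the range of the group. ACSS3 in control replicate 2 was at 4.79 FPKM, against 0.484 to 1.76 FPKM in the remaining control animals, with a gap of 0.703 of the range. Both gaps exceeded the 95% critical value of Dixon's test for 6 samples. They were taken on linear FPKM, and no gap is given for the log2 scale used in limma, on which a high value stands out less. Chance flags about 1 in 20 groups, and 20 groups were examined here.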

How the results depend on the processing

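No gene had an adjusted p-value below 0.05 in limma under any alternative. The count of genes with an unadjusted p-value below 0.05, 162, was 562 with all genes above 0, 346 with a mean of at least 0.1 FPKM, 325 with the replicate block, 329 with the smooth muscle and fibroblast covariate and 252 without treated replicates 1 and 2, and 145 to 331 with 1 animal left out. Among members it was 1 with all genes above 0 (LRP2) and 0 to 1 with 1 animal left out. The direction of small differences turned under some settings, and the cause was not tested. With the covariate the log2 fold change was 0.055 for PCCA, 0.24 for MCEE, 0.12 for TCN2 and 0.014 for SLC16A1, and without treated replicates 1 and 2 it was 0.0092 for PCCA, 0.22 for MCEE, 0.12 for TCN2 and -0.069 for TCN1. The mean FPKM of MCEE was higher by 0.294 in treated animals on the linear scale. With 1 animal left out, the log2 fold change ran from -0.20 to 0.035 for PCCA, -0.082 to 0.094 for PCCB, -0.11 to 0.12 for MCEE, 0.0074 to 0.21 for MMUT, -0.13 to 0.083 for MMAA, -0.091 to 0.13 for MMAB, -1.83 to -1.05 for ACSS3, 0.060 to 1.23 for TCN1, -0.33 to 0.11 for TCN2, -2.59 to -1.58 for LRP2 and -0.0011 to 0.22 for CD320. Using deviations from the group mean, 2 pairs of members passed by r, and 0 without treated replicate 6. Same-numbered animals are different animals, so the numbers were not taken as pairing. Their deviations correlated between -0.01 and 0.41 with a mean of 0.21, against a mean of -0.04 for the 30 other pairs. Of the control animals, 4 of 6 were best with their own number. Whether animals of 1 number shared a condition was not tested. With the replicate block no member had an unadjusted p-value below 0.05, while MMACHC lost it (limma p = 0.0704) and ACADSB gained it (limma p = 0.0135), against exact permutation p-values of 0.0433 and 0.0931 without the block. LRP2 could not be fitted with a mean of at least 0.1 FPKM. Depth limits LRP2, which had 3 reads or fewer in 6 animals.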

Other observations

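Relations between the 10 genes and the mean log2 FPKM of 6 marker lists (squamous epithelium, ketogenic epithelium, smooth muscle, fibroblast, endothelium, leukocyte and neutrophil) were computed after seeing the data. Each mean was taken only over genes of the list that averaged above 1 FPKM. For the leukocyte and neutrophil list these were PTPRC, CD3E and CXCR2. Of 60 relations 0 had a Benjamini-Hochberg adjusted permutation p-value below 0.05 for Pearson's r or Spearman's rho over the 12 animals. MCEE had a rho of 0.78 and an r of 0.82 with the ketogenic epithelium list (permutation p = 0.00452 and 0.00145, adjusted p = 0.0942 and 0.0870), and r was 0.63 without the 2 animals farthest from the median, 0.81 within control and 0.83 within treated animals.

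TCN2 had a rho of 0.78 and an r of 0.71 with the endothelium list (permutation p = 0.00396 and 0.00670, adjusted p = 0.0942 and 0.120), and r was 0.83 without the 2 farthest animals, 0.70 within control and 0.83 within treated animals. MMAA had a rho of 0.77 and an r of 0.58 with the fibroblast list (permutation p = 0.00471 and 0.0483, adjusted p = 0.0942 and 0.255), with an r of 0.68 without the 2 farthest animals. LRP2 had a rho of 0.71 and an r of 0.63 with the leukocyte and neutrophil list (permutation p = 0.0135 and 0.0196, adjusted p = 0.202 and 0.168), with an r of 0.63 without the 2 farthest animals, and 5 of its 12 values are 0.

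With the smooth muscle and fibroblast score as a covariate, SUCLG1 had a log2 fold change of 0.37 and an unadjusted limma p-value of 0.0114, against 0.24 and 0.0675 without it. The covariate also raised the count of all genes with an unadjusted limma p-value below 0.05 from 162 to 329. The Benjamini-Hochberg adjusted count over all genes remained 0.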
